A study of Saccharomyces cerevisiae with 142 samples.

Results

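The spindle pole body components are 9 genes of budding yeast (Saccharomyces cerevisiae) that encode the layers of the spindle pole body, and they were taken from 5449 measured genes by a list of names and not by their values. The list holds SPC42 (YKL042W), SPC29 (YPL124W) and SPC110 (YDR356W) of the central and inner layers, CNM67 (YNL225C), NUD1 (YOR373W) and SPC72 (YAL047C) of the outer layers, and TUB4 (YLR212C), SPC97 (YHR172W) and SPC98 (YNL126W) of the gamma-tubulin complex. All 9 were found, each with 1 probe set, and no filter on low values was applied to them. The series asked how transcripts behave in cells held at an arrest of the cell cycle, and it has 142 Affymetrix arrays in 9 time courses of 6 groups, all of the BF264-15D or BF264-15DU background.

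Wild type at 30 °C (2 courses, 28 arrays) was MATa bar1, the cdc20 group (2 courses, 32 arrays) was MATa bar1 with cdc20::LEU2, Pgall-CDC20::ADE2 and CFP-TUB1::URA3, and the cyclin mutant (2 courses, 30 arrays) was MATa with the B-type cyclin genes disrupted (clb1::URA3, clb2::LEU2 and clb3::TRP1, and likewise clb4::HIS2, clb5::ARG4 and clb6::APE1) and with GAL1-CLB1:LEU2. The label of the cyclin mutant lists no bar1. In these 3 groups small G1 cells were separated by elutriation, a sorting by size in a centrifuge, and followed at 30 °C in rich dextrose medium with sorbitol, where a GAL promoter is repressed. Wild type at 37 °C (1 course, 15 arrays), also MATa bar1, was elutriated after growth at 25 °C and moved to 37 °C. The cdc14-3 (21 arrays) and cdc15-2 (16 arrays) strains, 1 course each and both MATa bar1, carry heat-sensitive alleles of mitotic exit genes; alpha factor held them in G1 at 25 °C, and the release was at 37 °C. The way of synchronizing, the temperature and the array series therefore go with the group and cannot be told apart from the genotype in part of the comparisons.

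The spindle pole body is the microtubule-organizing centre of yeast and stays embedded in the nuclear envelope through the whole cell cycle. It is built in layers: a central plaque of Spc42 and Spc29, an inner side where Spc110 holds the gamma-tubulin complex inside the nucleus, and an outer side where Cnm67, Nud1 and Spc72 carry the cytoplasmic microtubules. It is duplicated once per cycle, early in the cycle, so that each pole of the mitotic spindle receives a copy.

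The labels were set against marker genes first. CLB2, CLB3 and CLB4 had course medians of at most 7.66 on the log2 scale in the cyclin mutant and at least 9.39 in every other course, and CLB6 was at 8.97 and 9.59 there against at least 10.29. CLB1 (10.82 and 10.90) and CLB5 (10.83 and 10.34) were not low in it (the strain carries GAL1-CLB1, and where the probes lie relative to the deletions was not tested). CDC20 stayed between 8.63 and 9.72 in the cdc20 courses, and the mRNA of a heat-sensitive allele checks nothing. Course medians of the 4 a-cell markers were at least 10.86 (MFA1), 10.50 (MFA2), 11.93 (STE2) and 8.92 (AGA2), and those of the 4 alpha-cell markers at most 8.30 (MF(ALPHA)1), 7.76 (STE3), 9.12 (MF(ALPHA)2) and 10.65 (SAG1). Levels of different probe sets are not comparable, so each list is read across courses. The summed level of the 4 a-cell markers was lower in the cyclin mutant (medians 12.9 and 13.0) than in the other 7 courses (14.8 to 15.5). These markers were not constant in the cyclin mutant. MFA2 ran from 9.03 to 13.97, MFA1 from 10.11 to 13.62, STE2 from 11.30 to 13.44 and AGA2 from 8.45 to 10.52. Smooth time curves of the 4 were highest at 62 to 71 min there. BAR1 was at 9.88 and 9.94 in the cyclin mutant and at most 7.36 elsewhere. The difference between the 3′ and 5′ probe sets of TDH1, a measure of RNA quality, averaged 2.98 and 2.59 in the cdc20 courses, 1.89 to 2.15 in the other courses at 30 °C, and 1.00 (cdc14-3), 1.5 (wild type) and 1.97 (cdc15-2) at 37 °C. The values of wild type at 30 °C, replicate 2, were used moved by 1 probe set, because as deposited they did not match replicate 1 (r = 0.0461, and 0.996 after the move); no label states this displacement.

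In wild type at 30 °C, 6 of the 9 genes changed over time (36.0% of all genes did): SPC29, SPC110, NUD1, TUB4, SPC97 and SPC98. A gene was called when the F-test of a smooth time curve in limma gave an adjusted p under 0.05 and the fitted curve spanned at least 1 on the log2 scale. The median fitted range of the 9 genes was 1.66, against 0.74 for all genes. The genes called were 8 of 9 in the cyclin mutant (37.5% of all genes), 7 in cdc20 (56.4%), 4 in wild type at 37 °C (32.6%), 4 in cdc14-3 (22.8%) and 4 in cdc15-2 (19.0%). Wild type at 37 °C was the exception in size: the median range of the 9, 0.68, was below that of all genes, 0.73, while it was above it in the other 5. NUD1, TUB4 and SPC98 were called in all 6 groups, SPC97 in 5, SPC29 in 4, SPC110 in 3, CNM67 in 2, SPC42 in 1 and SPC72 in none. Early samples carried part of these calls. Without the samples before 60 min, NUD1, SPC97 and SPC98 were no longer called in wild type at 37 °C; without those before 30 min, none of the 4 genes was in cdc15-2, nor TUB4 and SPC97 in cdc14-3, where SPC98 was also lost with a curve of 4 degrees of freedom. In the groups with 1 course the p-values rest on the scatter of arrays around the curve and not on repeated courses. In RNA of a whole culture, a change in the share of cells at a stage and a change of RNA per cell cannot be told apart.

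**Figure D1:**
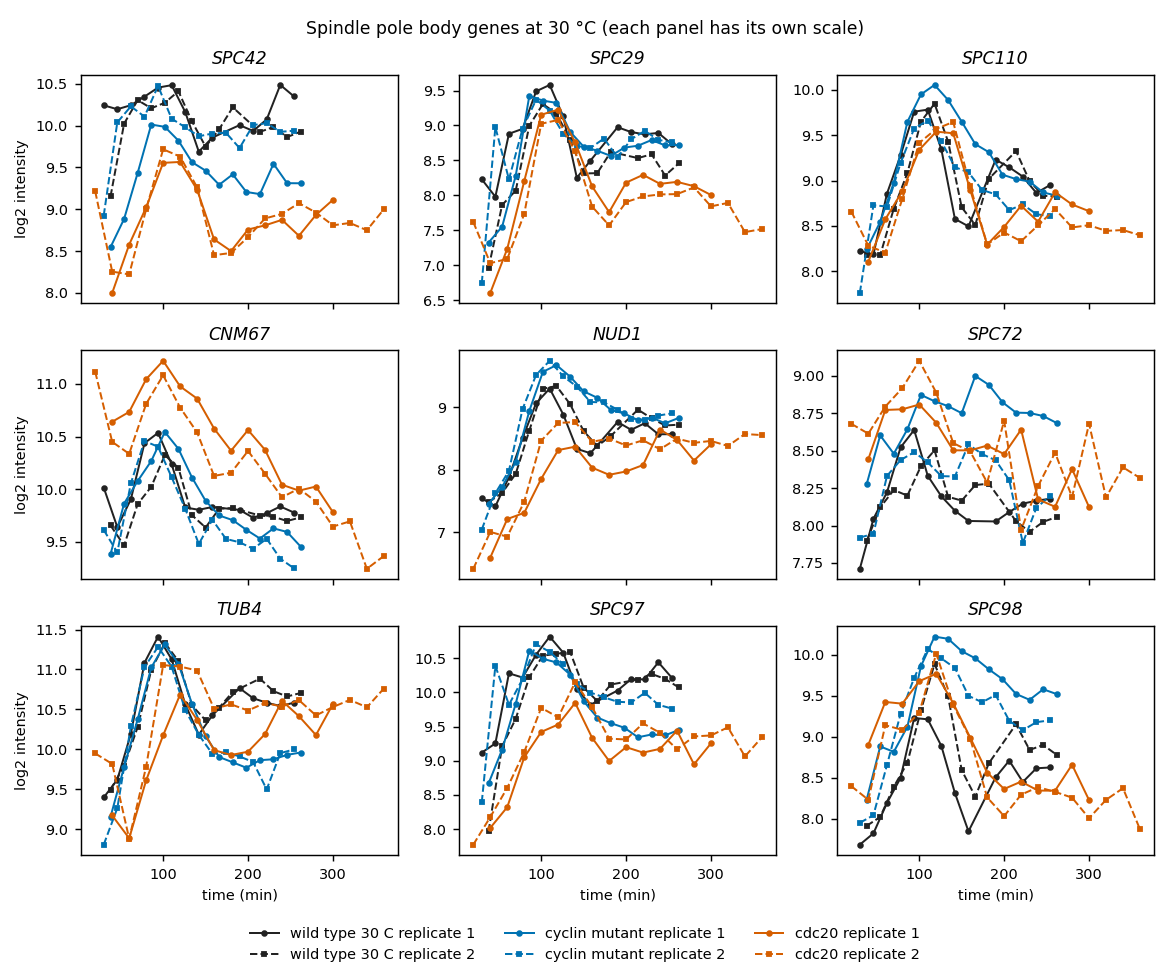
Log2 intensity of the 9 genes (1 panel each, with its own scale) against time in min in the 6 courses at 30 °C; solid lines with circles are replicate 1 and dashed lines with squares replicate 2. Near the CLN2 maximum the highest samples lie between 78 and 140 min. In SPC42 and SPC97 the cdc20 courses lie below wild type at that maximum and afterwards.

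SPC42 encodes the protein that forms the crystalline core of the central plaque. The first wild type course at 30 °C had a log2 intensity of 10.24 (30 min), 10.48 (110 min), 9.69 (142 min) and 10.35 (254 min). In replicate 2 it was 9.15 (38 min), 10.41 (118 min), 9.75 (150 min) and 9.93 (262 min). The courses thus differed mainly at the start, where replicate 1 was already high, and the fitted range of 0.62 stayed below the size asked for (adjusted p = 0.0456). Without replicate 1 SPC42 was called in wild type, with a fitted range of 1.14. In the cyclin mutant the range was 1.44 (adjusted p = 7.1e-07), from 8.55 and 8.92 in the earliest samples to 10.01 and 10.47 at the maximum; without the samples before 60 min it was 0.55 and not called. In cdc20 SPC42 went from 7.999 (40 min) to 9.57 (120 min) in replicate 1, and from 8.22 (60 min) to 9.72 (100 min) in replicate 2, with a sample of 9.21 (20 min) that lies outside the time span of replicate 1 (adjusted p = 0.058, not called; called without replicate 2 and without the samples before 60 min).

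SPC29 encodes the central plaque protein that links Spc42 to Spc110. It went from 6.96 (38 min) to 9.31 (102 min) and back to 8.31 (150 min) in wild type at 30 °C, replicate 2. In replicate 1 it started at 8.23 (30 min), reached 9.58 (110 min) and was 8.25 (142 min). As for SPC42, the replicates differed most in the earliest samples. The fitted range was 1.81 in wild type at 30 °C (adjusted p = 7.08e-06), 2.25 in the cyclin mutant and 2.00 in cdc20 (adjusted p = 0.000282). The call in cdc20 was lost without replicate 1, and with the TDH1 difference as a covariate. In cdc14-3, SPC29 was at 7.55 (0 min), 9.08 (36 min) and 7.86 (72 min), while the fitted curve spanned 0.77 (adjusted p = 0.35). The samples thus spanned more than the curve, and the missing call does not show a flat gene.

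SPC110 encodes the inner plaque protein that anchors the gamma-tubulin complex in the nucleus and binds calmodulin. Its courses in wild type at 30 °C lay close together: 8.22 (30 min), 9.78 (110 min), 8.50 (158 min) and 9.23 (190 min) in replicate 1, and 8.18 (38 min), 9.84 (118 min), 8.51 (166 min) and 9.32 (214 min) in replicate 2. The fitted range was 1.66 there (adjusted p = 3.11e-07), 1.85 in the cyclin mutant and 1.19 in cdc20. At 37 °C SPC110 reached 9.53 (90 min) in wild type, 9.20 (48 min) in cdc14-3 and 9.17 (48 min) in cdc15-2, with fitted ranges of 0.62 to 0.82 that were not called. Without the samples before 30 min SPC110 was called in cdc14-3, with a fitted range of 1.07.

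CNM67 encodes the spacer between the central and outer plaques. In cdc20 it was 11.22 (100 min) and 9.78 (300 min) in replicate 1, and 11.08 (100 min) and 9.37 (360 min) in replicate 2. In between it was at 10.37 (180 min) and then 10.56 (200 min) in replicate 1, and at 10.13 (160 min) and then 10.36 (200 min) in replicate 2. The fitted range was 1.51 (adjusted p = 5.67e-10). The maximum in wild type at 30 °C was 10.53 (94 min) and 10.32 (102 min), and from 142 min on every sample lay between 9.64 and 9.84. The fitted range there was 0.55 and not called. In the cyclin mutant it was 1.01, just over the size asked for, and the call was lost under quantile normalization and without the 46 min array of the second course.

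NUD1 encodes the outer plaque scaffold on which the mitotic exit network, the pathway of CDC15 and CDC14, is assembled. It changed in all 6 groups. At 30 °C in wild type it went from 7.54 (30 min) to 9.30 (110 min) in replicate 1, and from 7.48 (38 min) to 9.34 (118 min) in replicate 2 (fitted range 1.90, adjusted p = 1.71e-10). The cyclin mutant reached higher maxima, 9.68 (118 min) and 9.75 (110 min) (range 2.68). In cdc20 (range 2.25), replicate 1 was at 8.37 (140 min), 7.92 (180 min), 8.64 (240 min) and 8.41 (300 min), and replicate 2 at 8.76 (140 min), 8.39 (200 min) and 8.56 (360 min). In the strains that arrest at mitotic exit it began at 7.33 (cdc14-3) and 7.42 (cdc15-2) and had maxima of 9.10 (48 min) and 8.72 (60 min); from 144 min on it lay between 7.95 and 8.27 in these 2 courses.

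SPC72 encodes the receptor of the gamma-tubulin complex on the cytoplasmic side. It was called in no group, with fitted ranges of 0.26 (wild type at 37 °C) to 0.70 (wild type at 30 °C). Its adjusted p was nevertheless under 0.05 in wild type at 30 °C (3.97e-05), the cyclin mutant (2.06e-05), cdc20 (5.68e-05) and cdc15-2 (0.011), so these are small changes below the size asked for and not an absence of change. At 30 °C wild type went from 7.71 (30 min) to 8.64 (94 min) in replicate 1 and from 7.90 (38 min) to 8.50 (118 min) in replicate 2.

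TUB4 encodes gamma-tubulin, which starts microtubules, and SPC97 and SPC98 its partners in the complex. TUB4 changed in all 6 groups. Wild type at 30 °C went from 9.40 (30 min) to 11.41 (94 min) and 10.18 (142 min) in replicate 1, and from 9.49 (38 min) to 11.33 (102 min) and 10.36 (150 min) in replicate 2 (fitted range 1.95, adjusted p = 1.65e-07). The cyclin mutant had like maxima, 11.31 and 11.28, but afterwards TUB4 was lower, at 9.77 (198 min) and 9.50 (222 min) in its lowest samples after the maximum. In cdc14-3 TUB4 went from 9.74 (0 min) to 11.54 (36 min), and in cdc15-2 from 9.88 (12 min) to 11.22 (36 min). After that both stayed within 10.76 and 11.15. Wild type at 37 °C was at 11.04 (75 min), 10.49 (150 min) and 9.94 (225 min).

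SPC98 had fitted ranges of 1.23 (cdc15-2) to 2.14 (cyclin mutant), and it was called in all groups. Wild type at 30 °C moved from 7.68 (30 min) to 9.23 (94 min) and 7.85 (158 min) in replicate 1, and from 7.91 (38 min) to 9.89 (118 min) and 8.27 (166 min) in replicate 2. SPC97 had its maximum at 10.81 (110 min) and 10.59 (134 min) in these courses and troughs of 9.82 and 9.87 afterwards. Its range was 2.14 in wild type at 30 °C, which was 0.74 and not called without the samples before 60 min. It was 0.82 in cdc15-2 (adjusted p = 0.0079), the only group where SPC97 was not called.

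**Figure D2:**
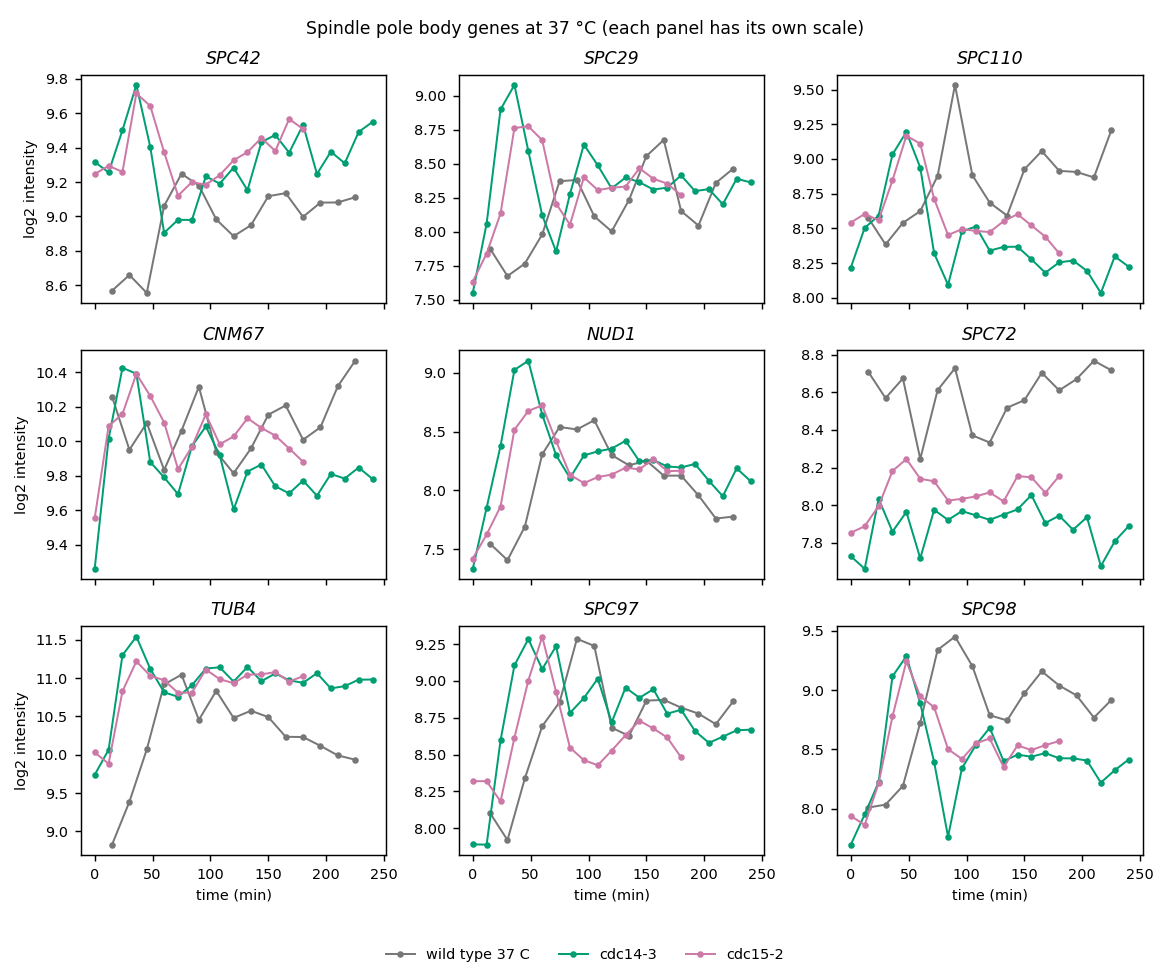
Log2 intensity of the 9 genes (1 panel each, with its own scale) against time in min in wild type, cdc14-3 and cdc15-2 at 37 °C, 1 course each. Near the CLN2 maximum, the highest samples of cdc14-3 and cdc15-2 come between 24 and 60 min and those of wild type between 75 and 105 min, so time since release cannot be compared directly between the ways of synchronizing.

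The median time of the maximum differed between the genes by up to about the spacing of the arrays. To compare courses, the time of each maximum was interpolated within 30 min before and 45 min after the highest array of CLN2, a G1 cyclin, and set against that of CLN2. CNM67 came 2.5 min before CLN2 (median of 8 courses), SPC72 1.5 min before (9 courses), TUB4 0.14 min after (9), SPC42 1.1 min after (8) and SPC29 3.2 min after (8). SPC98 came 11.7 min after CLN2 (9 courses), SPC110 12.6 min (8), NUD1 14.0 min (7) and SPC97 16.7 min (5). For comparison, RNR1, a gene of DNA precursor synthesis, came 0.29 min after CLN2 and HTB2, a histone gene, 16.9 min after. The median of TUB4 thus lay beside CLN2 and those of its complex partners SPC97 and SPC98 later. Within a course, SPC98 was later than TUB4 in 8 of 9 courses, SPC110 in 8 of 8 and NUD1 in 7 of 7.

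The difference between pairs of genes was tested within courses by an exact two-sided sign-flip test, adjusted over the pairs. In the analysis as first run, which used only maxima strictly inside the window, 28 of the 36 pairs had at least 6 courses and 0 were called; the smallest adjusted p was 0.0547 and 14 pairs had an unadjusted p under 0.05. A variant that also counts maxima on the first or last array of the window was added after this result was seen. It tested 36 pairs and called 20, with adjusted p from 0.0188 to 0.0422. These 20 are all pairs between the 5 earlier genes (CNM67, SPC72, TUB4, SPC42, SPC29) and the 4 later ones (SPC98, SPC110, NUD1, SPC97), and 0 pairs within these sets were called; the sets themselves were read from the same values. The order is therefore a description that the first test did not call. The arrays were mostly 12 to 20 min apart, about as wide as the step between the sets, and wild type at 37 °C was later than the median over courses for all but TUB4, as with 17.8 min for CNM67 and 29.9 min for NUD1.

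**Figure D3:**
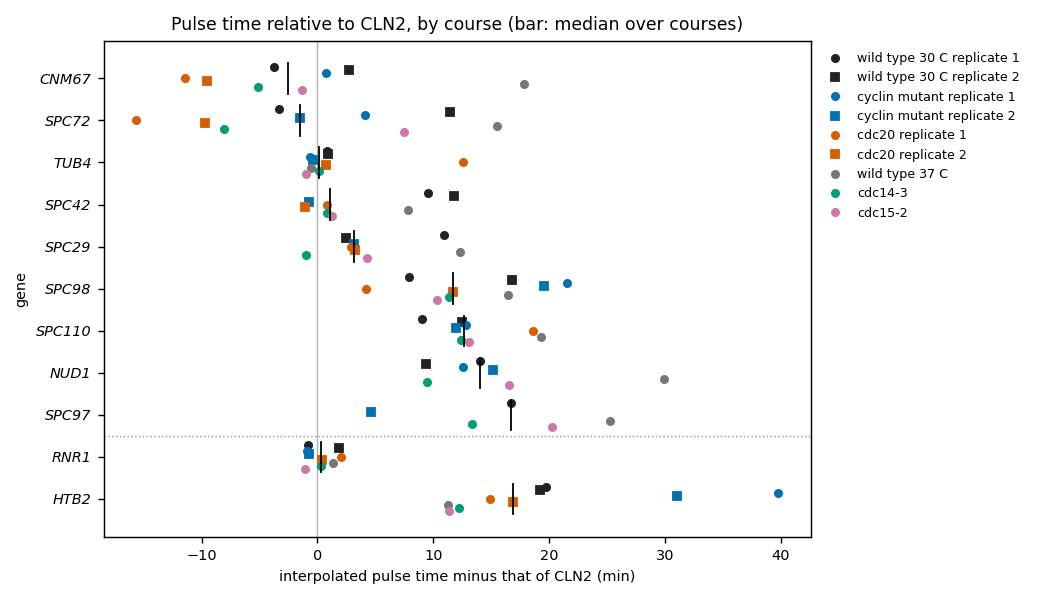
Interpolated time of the maximum of each gene minus that of CLN2, in min, for each course (points) with the median over courses (bar); maxima on the ends of the window are not drawn. CNM67, SPC72, TUB4, SPC42 and SPC29 have medians from 2.5 min before to 3.2 min after CLN2, and SPC98, SPC110, NUD1 and SPC97 from 11.7 to 16.7 min after; RNR1 and HTB2, below the dotted line, are for comparison.

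The level late in the course was compared between groups, as the mean log2 intensity from 100 min on, with 1 value per course. At 30 °C this window holds many of the maxima near CLN2. These lay at 94 to 134 min in wild type, 100 to 140 min in cdc20 and 78 to 118 min in the cyclin mutant. In cdc14-3 and cdc15-2 they came before it (24 to 60 min), and in wild type at 37 °C mostly so (75 to 105 min). At 30 °C the late level is therefore not a level of the arrest alone. The windows are unequal: cdc20 was followed to 300 and 360 min, both other groups at 30 °C to 254 and 262 min, and cdc14-3, cdc15-2 and wild type at 37 °C to 240, 180 and 225 min. In cdc20, which arrests before anaphase, 4 of the 9 genes were lower than in wild type at 30 °C (16.3% of all genes were lower) and 0 were higher (26.0% were). SPC42 was at 8.97 and 8.96 in the cdc20 courses and at 10.12 and 10.04 in wild type, a difference of -1.11 (SE 0.16, adjusted p = 0.0022), or 2.16-fold lower. SPC97 was at 9.30 and 9.48 against 10.26 and 10.25, a difference of -0.86 (SE 0.13, adjusted p = 0.0027). Both genes were already lower at the maximum near CLN2. SPC42 reached 9.57 and 9.72 in cdc20 against 10.48 and 10.41 in wild type, and SPC97 9.85 and 10.15 against 10.81 and 10.59. Their differences were thus not confined to the samples after the maximum. In late level the courses of the 2 groups did not overlap in SPC42 and SPC97. The same held for SPC29, NUD1 and SPC110 (8.87 and 8.72 against 9.05 and 9.11), and SPC110 was not called. CNM67 and SPC72 (8.45 and 8.46 against 8.14 and 8.19) did not overlap either, but with cdc20 higher, and neither was called. The share of all genes without overlap was not counted. SPC29, at 8.36 and 8.06 against 8.87 and 8.64, differed by -0.54 (SE 0.14, adjusted p = 0.0184), and NUD1, at 8.20 and 8.50 against 8.68 and 8.85, by -0.41 (SE 0.13, adjusted p = 0.0408). The calls of SPC29 and NUD1 were each lost with samples from 100 to 180 min only and without either wild type course. That of NUD1 was also lost with samples from 120 min, without either cyclin mutant course and without cdc20 replicate 1. SPC29 was also not called without cdc20 replicate 2. SPC42 and SPC97 kept theirs under each course left out. CNM67 was at 10.43 and 10.07 in cdc20 and 9.85 in both wild type courses, +0.40 with an adjusted p of 0.0675. It was called higher in cdc20 with samples from 100 to 180 min only (+0.73, adjusted p = 0.0122) and without cdc20 replicate 2 (+0.59, adjusted p = 0.0163). The TDH1 difference, which was higher in the cdc20 courses, moves with these results, and its part in them was not tested.

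In the cyclin mutant, SPC98 was at 9.80 and 9.49, above the 8.57 and 8.99 of wild type at 30 °C, by +0.87 (SE 0.18, adjusted p = 0.0189), or 1.82-fold. No other of the 9 genes was called higher (8.72% of all genes were). TUB4, which encodes the partner of Spc98, was called lower as the only member (6.63% of all genes were), at 10.20 and 10.08 against 10.60 and 10.76, by -0.54 (SE 0.15, adjusted p = 0.0499). Both calls were lost without wild type replicate 1 and without cyclin mutant replicate 1, and that of TUB4 without either course of either group. The lower a-cell marker sum of the cyclin mutant goes with these differences, and its part in them was not tested. SPC42 in the cyclin mutant was at 9.46 and 9.94, a wide spread, and NUD1 at 9.11 in both courses; neither differed from wild type with an adjusted p under 0.05 (0.1533 and 0.1159).

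Between the cyclin mutant and cdc20, 6 of the 9 genes differed. SPC98 (+0.97, SE 0.18, adjusted p = 0.0045), NUD1 (+0.76, SE 0.13, adjusted p = 0.0036), SPC42 (+0.74, SE 0.16, adjusted p = 0.0087), SPC29 (+0.61, SE 0.14, adjusted p = 0.0107) and SPC97 (+0.50, SE 0.13, adjusted p = 0.0171) were higher in the cyclin mutant (19.9% of all genes were), and CNM67 (-0.55, SE 0.15, adjusted p = 0.0229) was lower (25.4% were). The calls of CNM67 and SPC97 were lost without cyclin mutant replicate 2 and without cdc20 replicate 1, and that of SPC97 also with samples from 120 min. This comparison and the 2 before it share groups, so they are not separate evidence. TUB4 (-0.33, adjusted p = 0.1079), SPC110 (+0.37, adjusted p = 0.0748) and SPC72 (+0.10, adjusted p = 0.6451) were not called. With samples from 120 min TUB4 was called lower, and under quantile normalization SPC110 was called higher. The difference of TUB4 was -0.52 without cdc20 replicate 1, and that of SPC110 was +0.57 without cyclin mutant replicate 2.

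**Figure D4:**
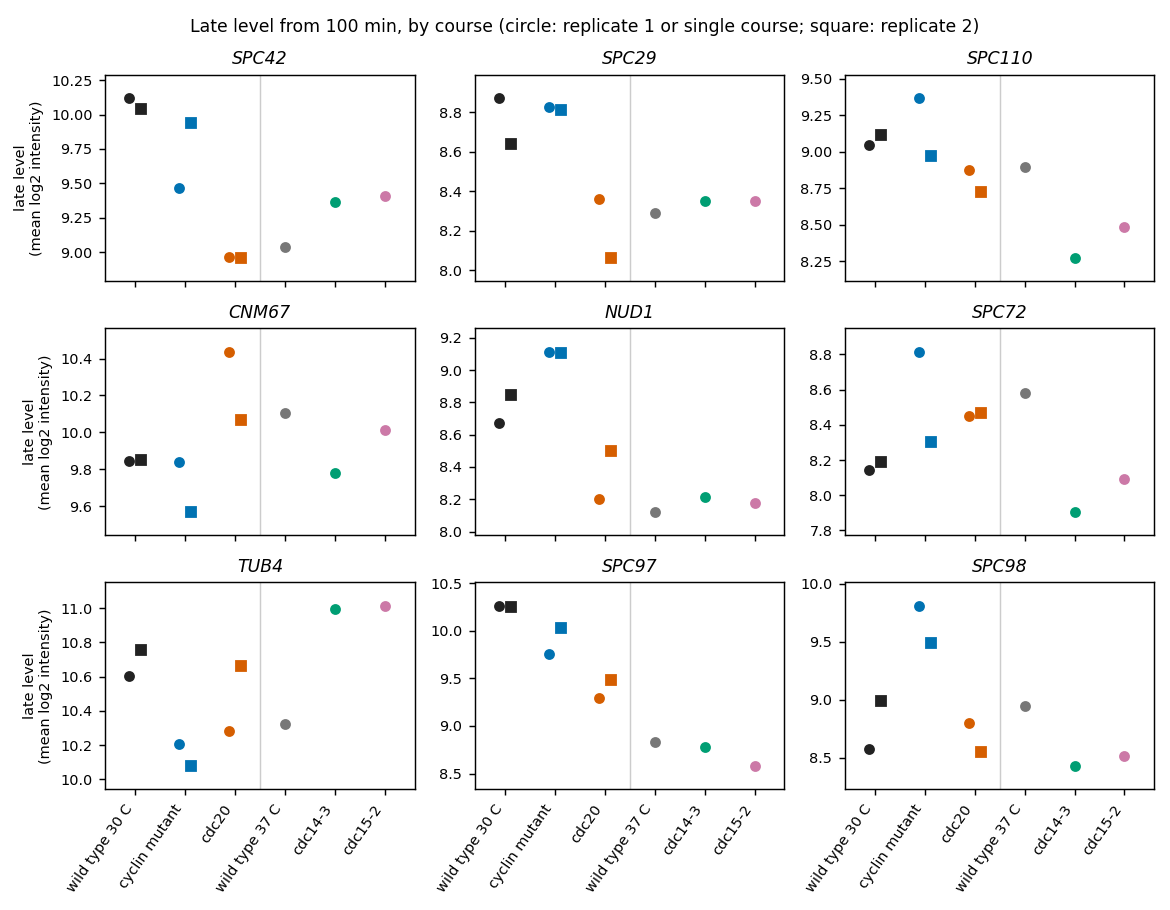
Late level of the 9 genes (log2 intensity averaged over the samples from 100 min on; 1 panel per gene with its own scale), 1 point per course, with circles for replicate 1 or a single course and squares for replicate 2. In SPC42 the cdc20 courses (8.97 and 8.96) lie apart from wild type at 30 °C (10.12 and 10.04), and in TUB4 cdc14-3 and cdc15-2 (10.996 and 11.01) lie above wild type at 37 °C (10.32).

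At 37 °C, 0 of the 9 genes were called in late level in cdc14-3 against wild type (3.84% of all genes were higher and 3.27% lower), in cdc15-2 against wild type (1.71% and 2.24%) or in cdc14-3 against cdc15-2 (0.0918% each way). With 1 course per group, limma here takes the spread from the groups with 2 courses. TUB4 was at 10.996 in cdc14-3 and 11.01 in cdc15-2 against 10.32 in wild type, differences of +0.68 (95% interval 0.19 to 1.16, adjusted p = 0.0912) and +0.69 (0.20 to 1.18, adjusted p = 0.1036). It passed in both comparisons when either cdc20 course was left out. SPC72 (7.91 against 8.58, adjusted p = 0.1109) and SPC110 (8.28 against 8.89, adjusted p = 0.1074) were lower in the cdc14-3 course without passing; SPC72 passed when either cyclin mutant course was left out. Between cdc14-3 and cdc15-2 the differences were from -0.24 (CNM67) to +0.19 (SPC97); the 95% interval for TUB4 ran from -0.50 to 0.47, so a change of up to about that size remains possible.

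Values after the trough that follows the maximum were compared next. The trough was the lowest sample within 80 min after the maximum. For wild type at 30 °C the highest sample within 60 min after the trough was above it by 0.86 and 0.88 in SPC98, 0.73 and 0.81 in SPC110, 0.50 and 0.58 in NUD1, and 0.03 and 0.19 in CNM67. The median over the 9 genes was 0.50 in replicate 1 and 0.36 in replicate 2. In the cyclin mutant the largest such value was 0.25 (SPC72) and the medians were -0.05 and 0.07. Most troughs of its replicate 1, and those of SPC110, NUD1 and SPC97 in replicate 2, lay on the last array within the 80 min. SPC98 in replicate 1 had its maximum at 118 min, its trough at 198 min and a value of -0.12. The trough itself may lie later there, so these values do not show whether a rise followed it. In cdc20 the medians were 0.37 and 0.24, and NUD1 (0.73) and TUB4 (0.68) were high in replicate 1 but not in replicate 2 (0.11 and 0.07). Wild type at 37 °C had a median of 0.38 and a highest value of 0.67 (SPC29). In cdc14-3 the median was 0.39, with 0.79 in SPC29 and with 0.92 in SPC98, whose trough is a single array of 7.76 (84 min) between 8.39 and 8.34, and in cdc15-2 it was 0.25 with a highest value of 0.41 (SPC29). Because the lowest and then the highest sample are picked, these values are biased upward where the trough lies inside the 80 min, and they have no test. For scale, the SD over the samples from 144 min was 0.03 to 0.12 in cdc14-3 and cdc15-2 and 0.04 to 0.31 in wild type at 30 °C. It was 0.07 to 0.35 in cdc20, 0.07 to 0.28 in the cyclin mutant and 0.05 to 0.24 in wild type at 37 °C.

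**Figure D5:**
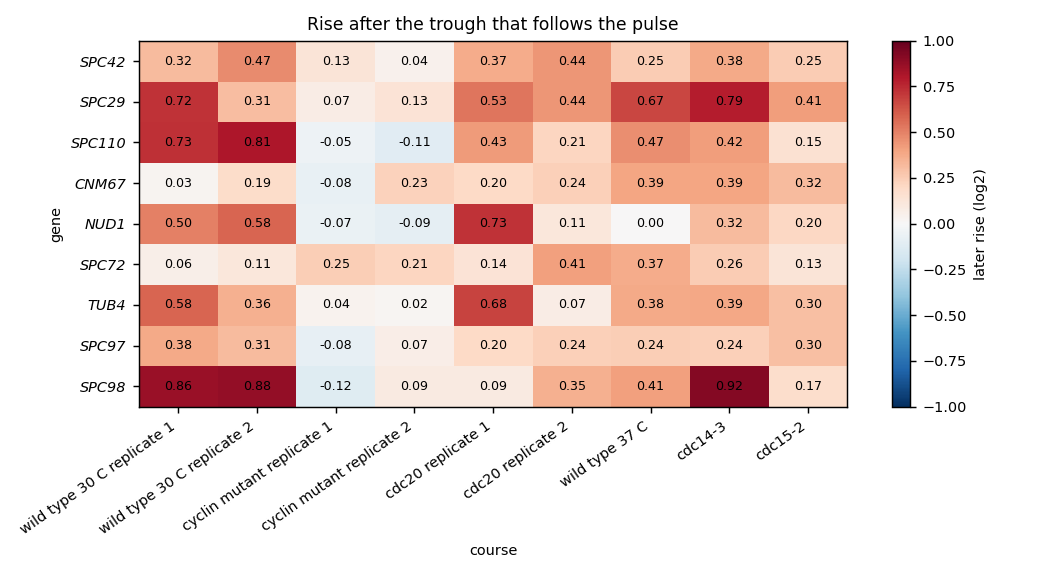
Highest log2 intensity within 60 min after the trough that follows the maximum, minus the trough, for each gene (rows) and course (columns), with the value in each cell and colour from -1 (blue) to 1 (red). The columns of the cyclin mutant hold values of at most 0.25, and many of their troughs lie at the end of the 80 min searched. SPC98 reaches 0.86 and 0.88 in wild type at 30 °C and 0.92 in cdc14-3.

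The size of the movement over the course, taken as the range of the running mean of 3 arrays, differed between groups for 1 gene. CNM67 spanned 1.15 and 1.45 in cdc20 and 0.63 and 0.52 in wild type at 30 °C, a difference of +0.72 (SE 0.14, adjusted p = 0.0152; 25.0% of all genes had a larger range in cdc20 and 1.67% a smaller one). The difference was -0.01 when only samples from 30 to 180 min were used, and the cdc20 courses ran to 300 and 360 min against 254 and 262 min. In that shorter window SPC98 was called instead, with a smaller range in cdc20 than in wild type (-0.65, adjusted p = 0.0367) and a larger one in the cyclin mutant than in cdc20 (+0.94, adjusted p = 0.0115). The call of CNM67 was lost without either wild type course. In the other 5 comparisons 0 of the 9 genes were called. Of all genes, 4.06% had a larger and 0.863% a smaller range in the cyclin mutant than in wild type at 30 °C, and 4.06% and 15.8% than in cdc20. Against wild type at 37 °C the shares were 0.294% and 0.0734% for cdc14-3 and 0.0918% and 0.0367% for cdc15-2, and between these strains 0% each way. In the cyclin mutant, 1 of the 9 genes (CNM67) had an unadjusted p under 0.05 in limma against cdc20, beside 1966 of all 5449 genes. Against wild type at 30 °C it was 0 of the 9, beside 1106 of all genes.

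Other genes of spindle pole body duplication were compared as a background from the same fits. Of the 4 genes of the bridge from which a new pole grows (CDC31, KAR1, SFI1 and MPS3), 1 changed over time in wild type at 30 °C (MPS3, a membrane protein, range 1.504) and 3 in cdc20 (CDC31, KAR1 and SFI1, ranges 1.40, 1.95 and 1.57). Of the 4 genes of insertion into the nuclear envelope (MPS2, BBP1, NDC1 and NBP1), BBP1, whose protein links the pole to the envelope, was called in all 6 groups, with ranges of 1.23 (cdc14-3) to 2.68 (cdc20). In the order wild type at 30 °C, wild type at 37 °C, cyclin mutant, cdc20, cdc14-3 and cdc15-2, the calls were 1, 2, 1, 3, 0 and 1 of the 4 bridge genes and 1, 1, 2, 1, 2 and 1 of the 4 insertion genes, beside 36.0%, 32.6%, 37.5%, 56.4%, 22.8% and 19.0% of all genes. Most of these counts lie near the shares. Neither CMD1 (calmodulin) nor MPS1 (the duplication kinase) was called in any group. The tubulin genes TUB1, TUB2 and TUB3 were all called in the cyclin mutant and in cdc20, 1 of the 3 was in either wild type and in cdc15-2, and 0 in cdc14-3. In late level, 3 of these 13 genes were lower in cdc20 than in wild type at 30 °C (16.3% of all genes were): MPS3 (8.61 against 9.58, adjusted p = 0.0071), TUB3 (11.34 against 11.998, adjusted p = 0.0049) and NBP1 (8.47 against 9.02, adjusted p = 0.0162). Another 2 of the 13 were higher (26.0% of all genes were): MPS1 (9.77 against 9.19, adjusted p = 0.0069) and CMD1 (13.06 against 12.75, adjusted p = 0.0436). In the cyclin mutant 1 of the 13 was higher than in wild type (8.72% of all genes were) and 0 lower (6.63%). Against cdc20, 3 were higher (19.9%) and 3 lower (25.4%) in the cyclin mutant.

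Across the 142 arrays, each centred on its course, the 36 pairs of the 9 genes had Pearson correlations of 0.05 to 0.81 with a median of 0.60. These are descriptions: arrays of a course follow each other in time and share its synchrony. The gene most like SPC42 among all 5449 was SPC29 (r = 0.81), the only member to be nearest to another. SPC29 was itself most like TOS4 (0.92), SPC110 like BUB1, a kinase of the spindle checkpoint (0.86), CNM67 like PSF1, a DNA replication gene (0.88), and TUB4 like EMP24, of transport from the endoplasmic reticulum (0.90). NUD1 was most like YJL118W (0.95), SPC98 like CIN8, a kinesin of the mitotic spindle (0.93), SPC97 like LTE1, a regulator of mitotic exit (0.87), and SPC72 like SLK19, a kinetochore and spindle protein (0.74).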

How the data were processed

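Total RNA was measured on Affymetrix arrays. The authors deposited 1 linear intensity per probe set and array (22.2 to 35171), processed with the affy package per the submitters' processing notes; version, summary and normalization: not given in the sources used here. The arrays had medians of 1056 to 1362. The log2 of each intensity was taken with a pseudocount of 0.

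Of 5900 probe sets, 184 were controls and 5498 were named for 1 gene; where 47 genes had several, the 1 with the highest mean was kept, which left 5449 genes (12 symbols updated through the RefSeq table). All 14 arrays of wild type at 30 °C, replicate 2, were moved up by 1 probe set; other moves of up to 10 either way gave r of at most 0.0494 with replicate 1. Columns left unused numbered 0.

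Tests used limma 3.58.1 in R 4.3.3, with Benjamini-Hochberg adjustment over all genes. Change over time was the F-test of a natural cubic spline (5 degrees of freedom) with an intercept per course, within a group. Late level and course range had 1 value per course in 1 fit of 9 courses and 6 group means (3 residual degrees of freedom); single courses are assumed to vary like the others. The labels give replicate numbers but not separate cultures, so p-values measure the spread between these courses. Same-numbered courses did not deviate together (r = -0.03, 0.05 and 0.08), so the numbers do not pair them. The fits were tested on simulated data. The number of arrays limits precision.

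The 9 genes and the lists were chosen with earlier results of these data known. The pulse and trough measures were designed after the values by array had been seen and are not part of the planned tests. Named are the 9 genes, listed genes, and the gene most correlated with a member. Figures used matplotlib 3.10.9.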

Additional observations from a re-analysis of the deposited data

How the results depend on the processing

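Without the fifth of genes with the lowest mean, 5 of the 9 genes (SPC29, SPC110, NUD1, SPC72 and SPC98) are no longer tested, so fewer can be called: over time 2 in the 30 °C wild type, 2 in the 37 °C wild type, 4 in the cyclin mutant, 3 in cdc20, 2 in cdc14-3 and 1 in cdc15-2, and in late level 2, 1 and 3 in the comparisons of cdc20 with wild type, the cyclin mutant with wild type, and the cyclin mutant with cdc20. Early samples carried part of the calls: in wild type at 37 °C 1 gene was called without the samples before 60 min (chosen after seeing the data) and 2 with the TDH1 difference as a covariate, and in cdc15-2 0 were called without the samples before 30 min. With wild type at 30 °C, replicate 2, as deposited, 0 genes differed in late level in each of the 3 comparisons at 30 °C and 0 in course range in cdc20, and SPC42 turned to 0.62 higher in cdc20, since other genes' values then stand in its place. Late level in the cyclin mutant against wild type gave 1 gene with samples from 100 to 180 min and 1 with the replicate block, where TUB4 was no longer called and CNM67 was called higher in cdc20 than in wild type; the block changed no other call. Course range in the cyclin mutant against cdc20 gave 1 gene (SPC98) with samples from 30 to 180 min; in cdc20 against wild type SPC98 was then called in place of CNM67, and CNM67 turned to -0.0051 there. Counting maxima on the ends of the window, a variant chosen after the first result was seen, raised the pairs with another pulse time from 0 to 20. Courses were left out only where a group had 2, so those of wild type at 37 °C, cdc14-3 and cdc15-2 always stayed in. Leaving out each course in turn gave 2 to 5 genes in late level for cdc20 against wild type, 0 to 3 for the cyclin mutant against wild type, 5 to 6 for the cyclin mutant against cdc20, 0 to 1 for cdc14-3 and for cdc15-2 against wild type at 37 °C, and 0 to 0 between these. In course range it gave 0 to 1 for cdc20 against wild type and for the cyclin mutant against cdc20, and 0 elsewhere. Over time it gave 6 to 7 genes for the 30 °C wild type, 8 to 8 for the cyclin mutant and 6 to 8 in cdc20. With 1 or 2 courses per group, a difference not called here may lie below what these courses can show.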
